A study of Mus musculus with 8 samples.

Results

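The genes described here are 10 mouse genes of oxidant and electrophile defence: Nqo1, Gclc, Gclm, Txnrd1, Hmox1 and Srxn1, which are textbook targets of the transcription factor NRF2, the carbonyl and aldo-keto reductase genes Cbr1, Cbr3 and Akr1e1, and the epoxide hydrolase gene Ephx2. They were found by the gene name that the array files give each probe, which returned 11 probes, 1 for each gene and 2 for Hmox1. Of the 10 genes, 9 were bright enough to enter the fit, among 19495 genes in all. Cbr1, Akr1e1 and Ephx2 were selected on their signal difference between the fasted and fed arrays, so their feeding differences are described and not tested.

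RNA came from the lower crypt of the jejunum, cut out by laser capture, with 1 single-colour array for each of 8 samples. In 4 samples the mice had gone without food for 24 h before treatment, and in the other 4 they were fed. The labels do not say whether each sample is a separate mouse, so p-values measure the spread between these samples, which may in part be technical. All were from Lgr5EGFP-IRES-CreERT2/+ mice, which carry a green fluorescent reporter and an inducible Cre at the stem cell gene Lgr5, and were 4 to 6 weeks old, with 2 samples labelled male and 2 labelled female in each group. Etoposide, which traps topoisomerase II on DNA, was given to every mouse through the tail vein at 80 mg/kg, moistened food followed, and tissue was taken 3 h later and fixed in methacarn. Every array therefore carries the drug, and fasting cannot be told apart from the food offered after it.

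NRF2, encoded by Nfe2l2, is held at a low level by KEAP1, which marks it for degradation. Oxidants and electrophiles disable KEAP1, and NRF2 then binds antioxidant response elements with a small MAF partner and drives genes for glutathione synthesis, thioredoxin reduction, heme breakdown and quinone and carbonyl reduction. In the intestinal epithelium these enzymes meet food-borne electrophiles and drugs. Carbonyl reductases are also known for reducing anthracycline drugs, another class of topoisomerase II poison.

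Signals are given as log2 processed intensity minus the 75th percentile of the same array, so that 0 is the 75th percentile of that array. On a single array, 53.2% to 65.6% of probes counted as well above background. Fasted replicate 3 was the least like the rest (correlations across genes of 0.83 to 0.93 with the other arrays) and was the only array scanned on the later day. Fasted replicate 3 and fed replicate 2 were each alone on their slide, and the other 6 arrays shared 3 slides, a fasted and a fed one on each. The array labelled female as fed replicate 4 went against its label: Xist, the transcript of the silenced X chromosome, was not well above background there and was at 3.33, 2.71 and 2.43 on the other 3 arrays labelled female. The Paneth cell lysozyme Lyz1 and the stem cell marker Olfm4 were well above background on all 8 arrays, while Lgr5, the gene that carries the reporter, was well above background on 0 arrays.

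**Figure D1:**
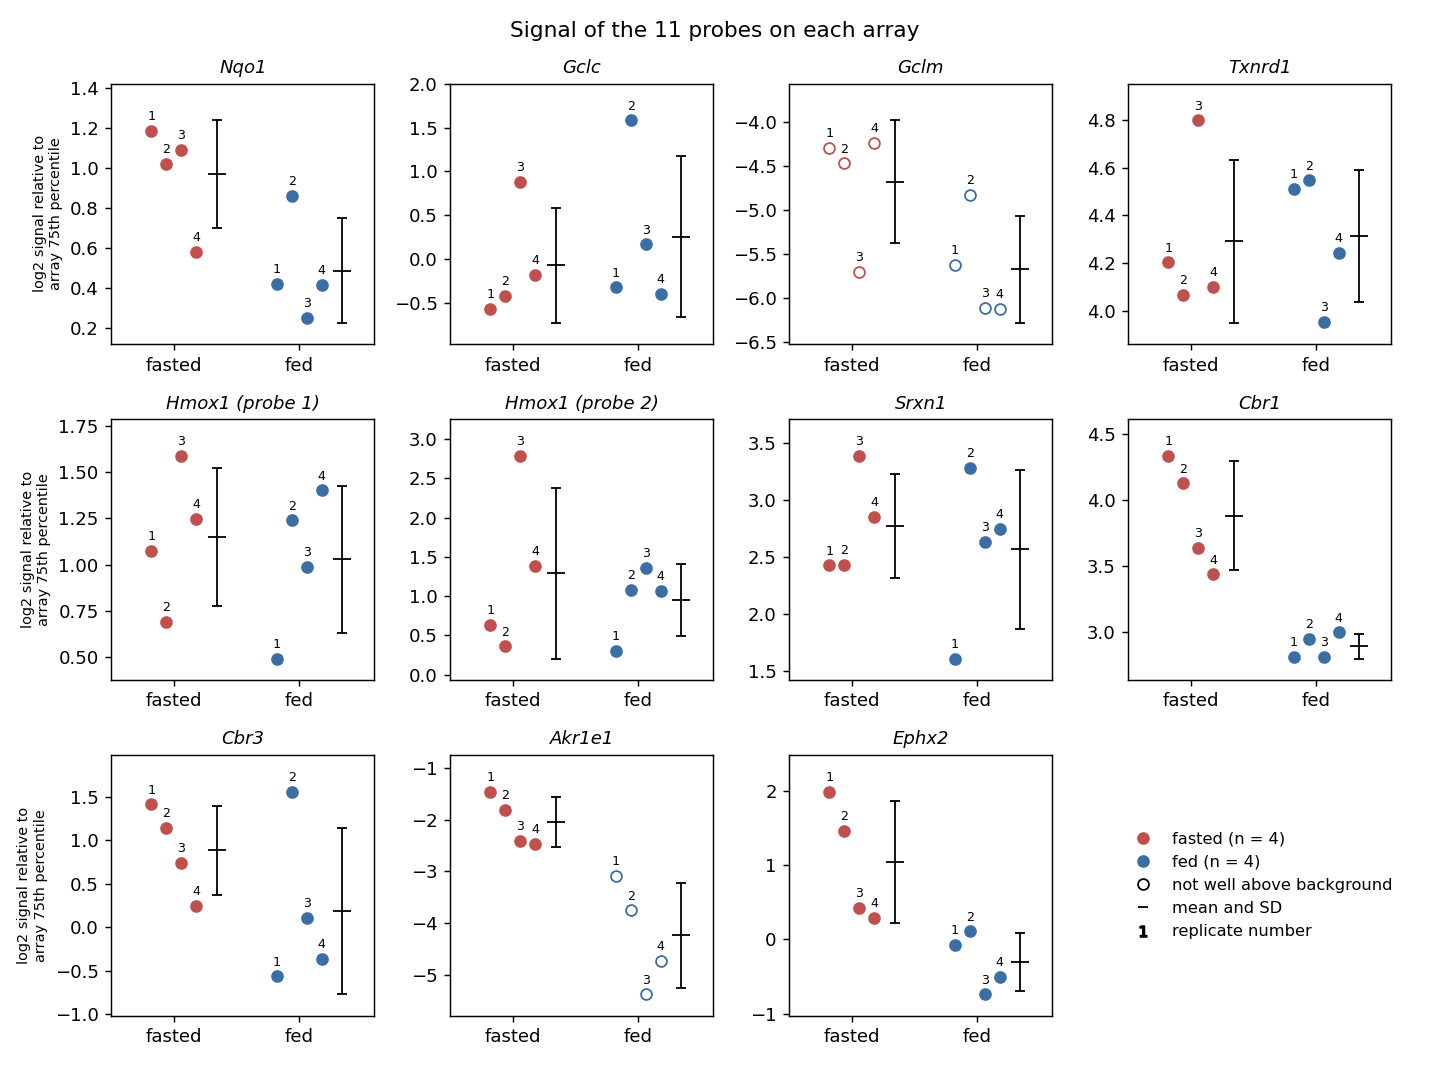
Signal of each of the 11 probes on the 4 fasted and 4 fed arrays, as log2 signal relative to the array's 75th percentile, with the mean and SD beside the points and an axis of its own for each probe. Filled points were well above background and open points were not. Cbr1, Akr1e1 and Ephx2 have all 4 fasted arrays above all 4 fed arrays, and the other 8 probes overlap. Of the Hmox1 probes, probe 1 is the one at the higher genome coordinate.

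The comparison of fasted with fed crypts asked which genes differ in feeding state after etoposide. None of the 6 fitted genes that were not picked passed it. After Benjamini-Hochberg adjustment at 0.05, limma called 0 of 19495 genes (0%), with adjusted p-values of 0.787 or more. An unadjusted p under 0.05 was reached by 1162 genes (5.96%), of which those higher in fasted crypts make up 3.95% and those lower 2.01% of all tested genes. Of those 6 genes 4 were higher and 2 lower in fasted crypts, with a median log2 difference of 0.27, where 44.6% of all tested genes were higher and the median was -0.06. The 3 picked genes were higher by the way they were chosen, and nothing is read from their direction. All 4 fasted arrays lay above all 4 fed arrays for the 3 picked genes, where this holds for 2.98% of all tested genes, and the reverse order for 1.97%. Neither order held for any of the other 6 (0 of 6). In a bulk sample, fewer cells of a type and less RNA per cell cannot be told apart.

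Of the glutathione synthesis genes Gclc could be compared and Gclm could not. Gclc encodes the catalytic subunit of glutamate-cysteine ligase, the rate-limiting enzyme of glutathione synthesis, and Gclm the modifier subunit that makes it more efficient. Gclc stood at -0.57, -0.42, 0.88 and -0.18 in fasted replicates 1 to 4, against -0.32, 1.58, 0.17 and -0.40 in fed replicates 1 to 4. The highest array of each group was fasted replicate 3 and fed replicate 2, and the groups overlapped. The mean was -0.07 ± 0.66 in fasted crypts and 0.26 ± 0.92 in fed (SD, n = 4 each), a log2 difference of -0.33 (SE 0.52, limma adjusted p = 0.872). Without fed replicate 2 the sign turned and the difference was 0.21, and without fasted replicate 3 it was -0.70. The Gclm probe was not well above background on any of the 8 arrays, at 25.2 to 88.8 intensity units in fasted and 22.7 to 42.4 in fed crypts, so no fold is given.

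Txnrd1 had near the same mean in both groups, while Srxn1 overlapped between them with a wider spread. Txnrd1 encodes the cytosolic thioredoxin reductase, which passes electrons from NADPH to thioredoxin. Its signal was 4.20, 4.07, 4.80 and 4.10 in fasted replicates 1 to 4, against 4.51, 4.55, 3.95 and 4.24 in fed replicates 1 to 4. Fasted replicate 3 was again the highest fasted array and fed replicate 2 the highest fed array. The log2 difference was -0.02 (SE 0.23, limma adjusted p = 0.984), and its sign turned in 9 of 24 alternatives, which ran from -0.24 to 0.13. Some alternatives, such as dropping the sex term, cannot move the estimate in this balanced design, so the 24 are not all separate checks.

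Srxn1 encodes sulfiredoxin, which restores overoxidised peroxiredoxins. It stood at 2.42, 2.43, 3.38 and 2.85 in fasted replicates 1 to 4, against 1.61, 3.28, 2.63 and 2.74 in fed replicates 1 to 4. The same 2 arrays led their groups, and fed replicate 1 was the lowest of all 8. The log2 difference was 0.21 (SE 0.35, limma adjusted p = 0.883), and without fed replicate 1 it was -0.08.

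Hmox1 encodes heme oxygenase 1, which opens heme into biliverdin, iron and carbon monoxide. Its 2 probes are shown because the spread over the fasted arrays differed between them. The Hmox1 probe at chr8:77624207-77624266 (mm9) and the one at chr8:77620797-77620856 (mm9) are given by the first 30 of their 60 bases, in lower case with no base singled out.
Hmox1 probe 1: atggttgtaagcatccatgttgactgacca
Hmox1 probe 2: atagagcgcaacaagcagaacccagtctat
With probe 1 the signal was 1.07, 0.69, 1.59 and 1.25 in fasted replicates 1 to 4, against 0.49, 1.24, 0.99 and 1.40 in fed replicates 1 to 4. With probe 2 it was 0.63, 0.36, 2.78 and 1.39 in fasted replicates 1 to 4, against 0.30, 1.08, 1.36 and 1.06 in fed replicates 1 to 4. Fasted replicate 3 was the highest fasted array with both probes and fed replicate 1 the lowest fed array. The SD over the fasted arrays was 0.37 with probe 1 and 1.09 with probe 2. Probe 2 was the brighter and stood for the gene, with a log2 difference of 0.34 (SE 0.38, limma adjusted p = 0.827). Without fasted replicate 3 it was -0.05. Probe 1 gave a mean of 1.15 ± 0.37 in fasted crypts and 1.03 ± 0.40 in fed (SD, n = 4 each).

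Nqo1 encodes the NAD(P)H quinone oxidoreductase, which reduces quinones by 2 electrons and is the standard readout of NRF2. It stood at 1.19, 1.02, 1.09 and 0.58 in fasted replicates 1 to 4, against 0.42, 0.86, 0.25 and 0.42 in fed replicates 1 to 4. Fasted replicate 4 lay below fed replicate 2, and 15 of the 16 fasted-to-fed array pairs had the fasted array higher. The mean was 0.97 ± 0.27 in fasted crypts and 0.49 ± 0.26 in fed (SD, n = 4 each). The log2 difference of 0.48 (SE 0.21, a 1.40-fold higher signal in fasted crypts) did not pass (limma adjusted p = 0.787). Over 24 alternatives, some of which cannot move the estimate, it stayed above 0, from 0.32 to 0.58. The limma adjusted p ran from 0.126 to 0.998.

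Cbr1 had all fasted arrays above all fed arrays. It encodes the main cytosolic carbonyl reductase, which uses NADPH to reduce quinones, prostaglandins and carbonyl drugs. The Cbr1 probe lies at chr16:93610453-93610512 (mm9), and the Cbr3 probe at chr16:93691120-93691179 (mm9). These neighbouring genes code for related enzymes, so the first 30 of 60 bases of both probes are shown, and their longest run in common over the whole probes is 7 bases.
Cbr1 probe: gataaaaaagttgaaccatggtgaacccaa
Cbr3 probe: tctgcaaactcagtctgaacaattcgctgt
Cbr1 stood at 4.33, 4.13, 3.64 and 3.44 in fasted replicates 1 to 4, against 2.81, 2.95, 2.81 and 3.00 in fed replicates 1 to 4. The fed arrays lay within 0.19 of each other, and the lowest fasted array was 0.44 above the highest fed array. Cbr1 averaged 3.88 ± 0.42 in fasted crypts and 2.89 ± 0.09 in fed (SD, n = 4 each), a log2 difference of 0.99 and a 1.98-fold higher signal in fasted crypts, given as a description.

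Cbr3, whose enzyme is a close relative with a narrower range of substrates, overlapped between the groups because of 1 array. It stood at 1.41, 1.15, 0.74 and 0.24 in fasted replicates 1 to 4, against -0.56, 1.55, 0.11 and -0.36 in fed replicates 1 to 4. Fed replicate 2 was the highest of all 8 arrays, and the other 3 fed arrays lay below all fasted arrays. The log2 difference was 0.70 (SE 0.43, limma adjusted p = 0.787). Without fed replicate 2 it was 1.11 (limma adjusted p = 0.790), and without fed replicate 1 it was 0.26. The difference with all 8 arrays was thus within reach of either fed array.

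Akr1e1, an aldo-keto reductase known for reducing 1,5-anhydrofructose, was measured in fasted crypts only. The Akr1e1 probe lies at chr13:4592152-4592211 (mm9), and its first 30 of 60 bases are shown because, of the 11 probes, it was well above background in fasted crypts and not in fed.
Akr1e1 probe: gcctttctggcttctattttcagaagtgaa
Its signal was -1.47, -1.81, -2.41 and -2.47 in fasted replicates 1 to 4, all well above background. In fed replicates 1 to 4 it was -3.09, -3.75, -5.38 and -4.73, and not well above background on any of them. The measured means were -2.04 ± 0.48 in fasted crypts and -4.24 ± 1.02 in fed (SD, n = 4 each). Each fed array was set to its dim Akr1e1 signal or, if greater, the faintest signal there that was well above background. On that basis Akr1e1 was 3.12-fold higher in fasted crypts. This is not a lower limit, since normexp background correction gave a smaller difference. The fitted log2 difference was 2.20, and it was 0.65 with normexp background correction and 3.00 in the authors' deposited matrix. The normexp setting added an offset of 50 intensity units to each signal, where the processed Akr1e1 signals of the fed arrays were 39.0 to 131.7 units. The cause of these differences in size was not tested.

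Ephx2 encodes the soluble epoxide hydrolase, which turns epoxides of fatty acids into diols. Its probe lies at chr14:66703214-66703273 (mm9), and the first 30 of its 60 bases are shown as for the other picked genes.
Ephx2 probe: tttttgaagcagctgattggagagtaaaga
Ephx2 stood at 1.98, 1.46, 0.42 and 0.28 in fasted replicates 1 to 4, against -0.08, 0.10, -0.74 and -0.50 in fed replicates 1 to 4. Fasted replicates 1 and 2, labelled male, were the highest, and the lowest fasted array was 0.18 above the highest fed array. The mean was 1.03 ± 0.82 in fasted crypts and -0.31 ± 0.39 in fed (SD, n = 4 each), a log2 difference of 1.34 and a 2.53-fold higher signal in fasted crypts, given as a description.

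**Figure D2:**
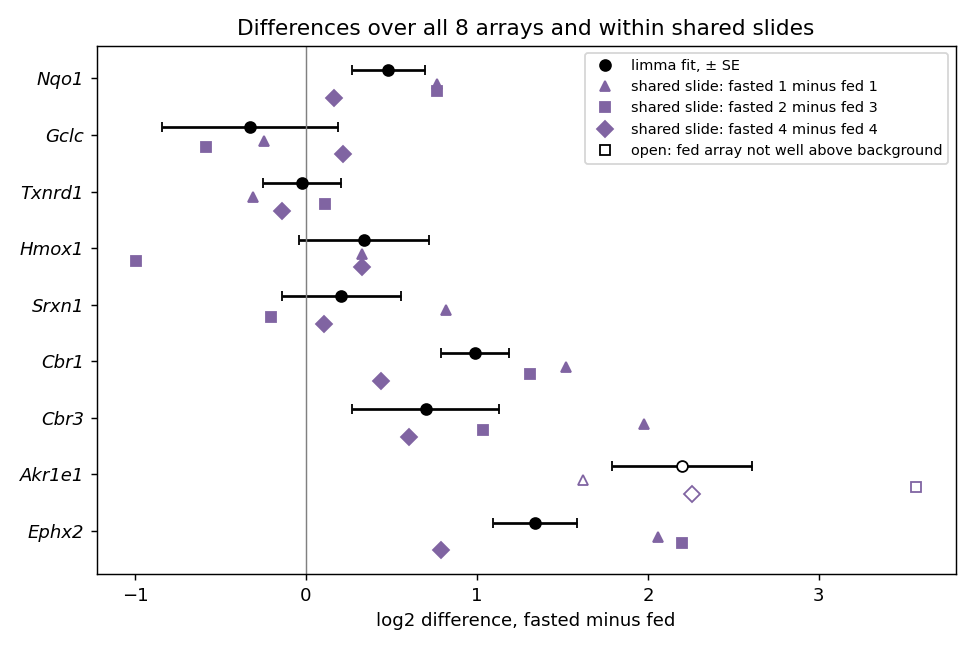
Log2 difference of fasted minus fed for the 9 fitted genes: black points give limma's fit over 8 arrays with its SE, and purple points the difference within each of the 3 shared slides. Open points mark Akr1e1, whose fed arrays were not well above background. Nqo1 and Cbr3 lie to the right of 0 on all 3 slides, as Cbr1, Akr1e1 and Ephx2 must, given how they were picked. The share of all tested genes that do so was not counted.

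Within the 3 shared slides Cbr3 and Nqo1 were higher on the fasted array each time. The share of all tested genes that were higher each time was not counted, so nothing is read from this. For the picked genes that direction is fixed by their choice, and only the sizes are given. The pairs are fasted 1 with fed 1, fasted 2 with fed 3, which differ in labelled sex, and fasted 4 with fed 4. Ephx2 differed by 2.06, 2.20 and 0.79 in that order, and Cbr1 by 1.52, 1.31 and 0.44. Cbr3 differed by 1.98, 1.03 and 0.60, and Nqo1 by 0.77, 0.77 and 0.16. For these 4 genes the smallest value was that of the pair of fasted 4 and fed 4. Both arrays are labelled female, but Xist was well above background on fasted 4 and not on fed 4. Gclc, Txnrd1, Hmox1 and Srxn1 changed sign between slides, with Srxn1 at 0.82, -0.20 and 0.11 and Gclc at -0.24, -0.59 and 0.22. When slide replaced labelled sex in the model, Cbr3 differed by 1.20 (limma adjusted p = 0.222) and Nqo1 by 0.56 (limma adjusted p = 0.334). These differences come from the same 3 pairs and are no further evidence. Fasted 3 and fed 2, each alone on its slide, add nothing to them, and fed 2 was the highest array for Cbr3.

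**Figure D3:**
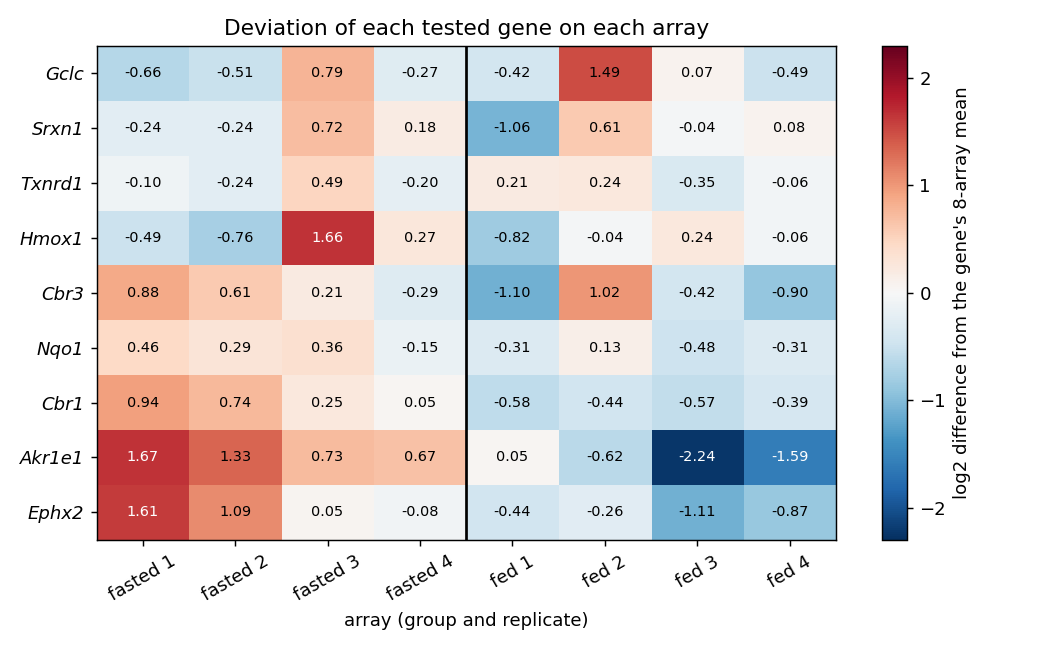
Difference of each array from the gene's mean over 8 arrays on the log2 scale, for the 9 fitted genes (rows) and the 4 fasted and 4 fed arrays (columns). Gclc and Srxn1 are highest on fasted 3 and fed 2, while Cbr1, Akr1e1 and Ephx2 divide at the line between the groups.

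Values without fasted replicate 3, and then without fed replicate 4, the array against its sex label, are given as descriptions. Cbr1 differed by 1.02 and 1.097, Ephx2 by 1.39 and 1.46, and Akr1e1, whose fed signals were all dim, by 2.10 and 2.25. Nqo1 differed by 0.38 and 0.51 in these fits, Cbr3 by 0.62 in both, Srxn1 by 0.06 and 0.18, Hmox1 by -0.05 and 0.17, Txnrd1 by -0.24 and -0.04, and Gclc by -0.70 and -0.60.

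The genes thus varied in different ways among themselves, as the plot of deviations shows. Of the 9 fitted genes, 4 had fasted replicate 3 as the highest fasted array, namely Gclc, Txnrd1, Hmox1 and Srxn1, and the other 5 had fasted replicate 1. Fed replicate 2 was the highest fed array for 6 genes. Gclc was 0.79 above its mean on fasted replicate 3 and 1.49 above it on fed replicate 2. These 2 arrays were each alone on their slide and had 53.6% and 55.6% of probes well above background. Fed replicate 1, with the lowest share, 53.2%, was instead the lowest fed array for Srxn1, Hmox1 and Cbr3, and the part of slide and signal level in this was not tested. The SD over 8 arrays was 0.29 for Txnrd1 and 0.35 for Nqo1, below the median of 0.49 over all tested genes, and 0.76 for Gclc, 0.79 for Hmox1, 0.80 for Cbr3 and 0.93 for Ephx2. The error that the extraction software gives for a spot was at most 8.53% of the signal for the fitted genes, leaving out Akr1e1.

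Labelled sex, which the choice of genes did not use, was fitted beside feeding, and no gene of the set passed for it. Akr1e1 was 1.22 higher in arrays labelled male (SE 0.41), but its fed signals were not well above background. Ephx2 was 1.00 higher in arrays labelled male (SE 0.24), with means of 0.87 in arrays labelled male and -0.14 in those labelled female. Hmox1, by probe 2, was lower in arrays labelled male, at 0.59 against 1.65 in those labelled female, a log2 difference of -1.05 (SE 0.38). Without fasted replicate 3 it was -0.67, and probe 1 had means of 0.87 in arrays labelled male and 1.31 in those labelled female. None of these passed limma's test over all genes (adjusted p = 0.9999 for each). In that test 0 of 19495 genes (0%) passed and 431 (2.21%) had an unadjusted p under 0.05. Without fed replicate 4, whose transcripts go against its label, Ephx2 differed by 1.12 and Hmox1 by -1.22, and both still failed (adjusted p = 1 for both).

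The feeding difference of Gclc was -1.12 in arrays labelled male and 0.47 in those labelled female. For Txnrd1 the values were -0.39 and 0.35, for Hmox1 -0.20 and 0.88, and for Cbr1 1.35 and 0.63. limma's interaction test, which asks whether the feeding difference depends on labelled sex, gave -1.59 for Gclc (SE 0.92, adjusted p = 0.758) and 0.72 for Cbr1 (SE 0.32, adjusted p = 0.758). It called 0 of 19490 genes (0%), with 618 (3.17%) at an unadjusted p under 0.05. With 2 arrays in each cell of that design, 1 array can set such a value: without fed replicate 2 the interaction of Gclc was -0.64.

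**Figure D4:**
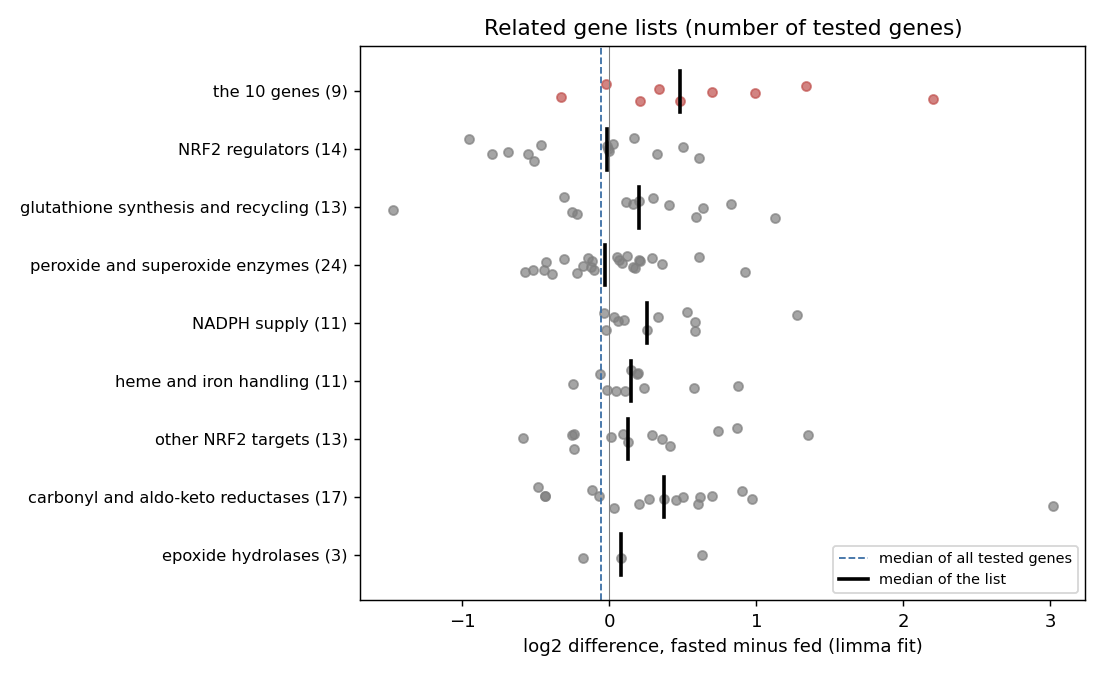
Log2 difference of fasted minus fed from limma's fit for each fitted gene of the set and of 8 related lists, with the list's median as a black bar and the median of all tested genes as a dashed line. The carbonyl and aldo-keto reductases have a median of 0.37 and the NRF2 regulators one of -0.01, and the order of the lists changes when single arrays are left out.

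Related genes were read from 8 lists. Among 14 regulators of NRF2, 5 were higher and 9 lower in fasted crypts, with a median log2 difference of -0.01, and 0 passed. Nfe2l2 itself stood at 0.54, 0.40, 0.46 and 0.04 in fasted replicates 1 to 4, against -0.02, -0.12, -0.48 and -0.36 in fed replicates 1 to 4. The groups did not overlap, and the log2 difference was 0.61 (SE 0.20, limma adjusted p = 0.787). Nfe2l2 had the smallest p of its list and was the only 1 of the 14 with all fasted arrays above all fed arrays. That order held for 2.98% of all tested genes. Keap1 differed by -0.004 (SE 0.22). Nfe2l1, a relative of Nfe2l2, differed by -0.69 (SE 0.41), the small MAF gene Mafg by -0.55 (SE 0.33), and Bach1, the repressor that competes with NRF2 for its elements, by -0.46 (SE 0.33).

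Among 17 carbonyl and aldo-keto reductases 12 were higher and 5 lower (median 0.37), and 0 passed. All fasted arrays lay above all fed arrays for 2 of the 17, against 2.98% of all tested genes. Akr1b7, 1 of the 2, entered the fit through its 4 fasted arrays, so nothing is read from this count. Dhrs11, Akr1b7 and Dhrs1 are named for their small p in this comparison. Dhrs11, a short-chain dehydrogenase, stood at 2.43, 2.23, 1.82 and 1.73 in fasted replicates 1 to 4, against 1.54, 0.63, 1.06 and 1.09 in fed replicates 1 to 4, without overlap. Akr1b7, an aldose reductase relative, was well above background on all 4 fasted arrays and on 1 fed array, at -0.43, -0.34, -2.17 and -2.38 in fasted replicates 1 to 4, against -5.31, -5.41, -4.23 and -2.43 in fed replicates 1 to 4. Dhrs1 differed by 0.90. Cbr4, the mitochondrial carbonyl reductase, differed by -0.44 (SE 0.27), and Cbr2 was well above background on 1 array. Of the other epoxide hydrolases 3 were measured, 1 had all fasted arrays above all fed arrays, and 0 passed. Lta4h, which opens the epoxide of leukotriene A4, stood at 1.28, 1.20, 1.51 and 0.83 in fasted replicates 1 to 4, against 0.72, 0.42, 0.57 and 0.58 in fed replicates 1 to 4, without overlap (log2 difference 0.63, SE 0.21). Ephx1, the microsomal enzyme, differed by -0.18 (SE 0.31). Ephx3 had means of -0.71 in fasted crypts and -0.59 in fed, where its spot was an outlier on fed replicates 3 and 4. Its fitted difference was 0.08 (SE 0.86) and turned to -0.13 without the sex term.

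The suppliers of NADPH were higher in 9 of 11 genes (median 0.26), but in 6 of 11 (median 0.06) without fasted replicate 3. Among them were the malic enzymes Me1 and Me2 at 1.27 (SE 0.50) and 0.58 (SE 0.25), Idh1 at 0.53 and G6pdx, which feeds the pentose phosphate pathway, at 0.26 (SE 0.39). In glutathione synthesis and recycling 9 of 13 were higher (median 0.20). Slc3a2, the shared heavy chain of amino acid exchangers, differed by 0.40 (SE 0.16), Glrx by 0.83, Glrx2 by -0.31 and the glutathione reductase gene Gsr by 0.30 (SE 0.21), while Slc7a11, the cystine carrier, was well above background on 0 arrays. The peroxide and superoxide enzymes split into 12 higher and 12 lower (median -0.03). Gpx2, the epithelial glutathione peroxidase, differed by -0.43 (SE 0.17), the stress gene Sesn2 by -0.44, Sesn1 by 0.61, Txn1 by -0.18 and Prdx1 by 0.16. In heme and iron handling 8 of 11 were higher (median 0.15), with the iron oxidase gene Heph at 0.88, Tfrc at 0.58 and Ftl1 at -0.25. Of 13 other NRF2 targets 9 were higher (median 0.12), including Aldh1a1 at 1.35, Ugdh at 0.87 and Osgin1 at 0.74. No gene of the 8 lists passed limma's test over all genes, and every one named here from the feeding fit had an adjusted p of at least 0.787.

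Lists of cell markers were read on the same arrays, and 0 markers passed limma's test over all genes. All 23 tested enterocyte markers were higher in fasted crypts, with a median log2 difference of 0.98, and their summed signal was 177.3 to 284.4 in fasted and 107.9 to 148.1 in fed crypts, in multiples of the array's 75th percentile. The sum was highest in fasted replicates 1 and 2, at 247.4 and 284.4, the arrays that were also highest for Cbr1, Akr1e1 and Ephx2. All 11 Paneth cell markers were lower, with summed signals of 404.0 to 519.2 in fasted and 531.6 to 745.7 in fed crypts. Leukocyte and macrophage markers were lower in 9 of 10 tested (168.0 to 242.9 in fasted and 236.4 to 301.4 in fed crypts). These sums overlapped, and the brightest marker was Itgam, at means of 7.1 in fasted and 7.5 in fed crypts. Mrc1, listed but not tested, was well above background on 0 arrays. The sums for goblet, stem, enteroendocrine and tuft, fibroblast and muscle, and endothelial and erythroid markers overlapped too. Of the stem cell markers 6 were higher and 5 lower. Only Olfm4 (-1.11) among them was free of overlap, with all fasted arrays below all fed arrays, as in 1.97% of all tested genes. That order also held for 2 of the 11 Paneth cell markers. The reverse order, found in 2.98% of all tested genes, held for 10 of the 23 enterocyte markers. The part of these cells in the values of the set was not tested.

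By gene-centred signal over the 8 arrays, the genes most like Cbr1 were Pepd, Sec24d and Maoa, with root mean square differences of 0.13, 0.14 and 0.16 on the log2 scale, against a median of 0.74 over 19349 genes. Those most like Ephx2 were Gstm1, Emc9 and Cdr2 (0.25, 0.26 and 0.31). Akr1e1 was nearest to Gfra2, Cstad and Kank2 (0.54, 0.57 and 0.58), a ranking that rests on 4 fed signals not well above background. Nqo1 was nearest to a probe without a gene symbol, Piga and Ube4b (0.09, 0.11 and 0.11). Within the set, Cbr1 was nearest to Nqo1 (0.34) and Ephx2 (0.39), and far from Gclc (1.04). These are likenesses over 8 arrays that share slides and signal level, given without a test. For Cbr1, Akr1e1 and Ephx2 they also rest on the values by which these genes were picked. Pepd, Sec24d and Maoa had feeding differences of 0.996, 0.97 and 0.88, close to that of Cbr1.

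Promoter windows from RefSeq (GRCm38.p6), from 250 bases before to 50 after the annotated start, were given for 7 of the 10 genes in 9 windows, 3 of them for Txnrd1. They were searched on both strands for the antioxidant response element core TGACNNNGC and for TGANTCAGC, a form of the MAF-type site, and 1 run of letters can match both. Of 32851 windows 12.4% hold TGACNNNGC and 1.19% hold TGANTCAGC. Matches were found for Srxn1, Gclm and Txnrd1, each in 1 window. Srxn1 held TGAGTCAGC at position -45 and a reverse-strand match at position 28, Txnrd1 a reverse-strand match at position -92 of 1 of its windows, and Gclm one at position -134, where the annotated start is position 0. The windows for Nqo1, Cbr1, Cbr3 and Akr1e1 held neither set of letters. Srxn1 and Txnrd1 are shown as fitted genes with a match, and Cbr1 and Akr1e1 as picked genes without one, with motif matches in capitals. A link between matches and feeding differences was not tested.
Srxn1 chr2:152105274-152105573, plus strand: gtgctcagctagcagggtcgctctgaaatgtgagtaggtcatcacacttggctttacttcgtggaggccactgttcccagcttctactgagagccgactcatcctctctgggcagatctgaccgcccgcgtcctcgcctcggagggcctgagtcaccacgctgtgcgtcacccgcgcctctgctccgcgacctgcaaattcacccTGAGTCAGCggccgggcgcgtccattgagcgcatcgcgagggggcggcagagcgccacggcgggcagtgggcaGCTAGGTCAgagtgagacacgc
Txnrd1 chr10:82858956-82859255, plus strand: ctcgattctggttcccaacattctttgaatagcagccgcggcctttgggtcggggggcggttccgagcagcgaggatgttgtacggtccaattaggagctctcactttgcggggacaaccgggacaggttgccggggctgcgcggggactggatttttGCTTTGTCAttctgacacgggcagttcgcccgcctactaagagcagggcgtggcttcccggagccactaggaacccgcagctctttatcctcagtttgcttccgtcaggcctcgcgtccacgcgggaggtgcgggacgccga
Cbr1 chr16:93607587-93607886, plus strand: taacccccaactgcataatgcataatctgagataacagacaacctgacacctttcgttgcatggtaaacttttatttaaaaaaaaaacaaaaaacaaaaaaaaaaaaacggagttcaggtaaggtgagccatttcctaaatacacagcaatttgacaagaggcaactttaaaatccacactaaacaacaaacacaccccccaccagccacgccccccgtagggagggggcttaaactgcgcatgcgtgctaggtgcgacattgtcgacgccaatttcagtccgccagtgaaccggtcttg
Akr1e1 chr13:4609115-4609414, minus strand: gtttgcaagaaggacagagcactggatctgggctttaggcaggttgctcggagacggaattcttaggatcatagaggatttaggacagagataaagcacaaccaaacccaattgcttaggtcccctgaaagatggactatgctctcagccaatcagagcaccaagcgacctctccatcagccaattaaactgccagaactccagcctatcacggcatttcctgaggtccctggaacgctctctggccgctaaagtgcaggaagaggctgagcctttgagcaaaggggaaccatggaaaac
A match is a run of letters and not a shown binding site, and a window without one says nothing of NRF2 binding outside it.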

How the data were processed

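RNA of laser-captured lower crypts was labelled with Cy5 and hybridised to single-colour Agilent mouse arrays, as the labels' protocols say. Scanner files as deposited hold linear intensity values, background-subtracted and detrended within each array, and per the file headers the software was Agilent Feature Extraction 11.5.1.1. For the same arrays a matrix of log2 values was deposited (column medians 7.73 to 8.33, Spearman correlation of at least 0.999 with the processed signal), and its scaling, centring and handling of dim spots stay unknown. No probe was saturated, and 0 of 28 array pairs held identical values.

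Control and outlier spots were left out, and spots of each of 39429 probes were averaged. A RefSeq table of GRCm38.p6 gave a symbol by accession to 27655 probes, and 11774 stayed under the files' own name. Positions of probes, in mm9, come from the files. Signals were put on the log2 scale, the array's 75th percentile was subtracted, and limma 3.58.1 (R 4.3.3) fitted feeding and labelled sex with a mean trend. A probe entered if 4 or more of the 8 arrays had it well above background, and a gene was read from its brightest probe. The number of arrays limits the precision. In 20 simulated sets of 19358 independent genes, 200 of them altered, the feeding test found 10.5% of log2 shifts of 1, 52.8% of shifts of 2 and 75.5% of shifts of 3.

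The genes, the lists and the tests were chosen with earlier results of these data known. The genes named from a related list are up to 3 with the smallest p for feeding, plus Nfe2l2, Keap1, Bach1, Gsr, Slc7a11, G6pdx, Txn1, Prdx1, Gpx2, Ephx1, Cbr2 and Cbr4. The 3 most alike genes were taken for Cbr1, Akr1e1, Ephx2 and Nqo1. Alternatives were other scaling, background correction, filters and probe rules, the authors' matrix, no sex term, blocks, a covariate, other variance models, a threshold of 0.1 and left-out arrays. The pair of arrays alone on their slides was left out together as an alternative added after the data were seen.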

Additional observations from a re-analysis of the deposited data

How the results depend on the processing

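Fasted against fed, the 0 genes that passed stayed 0 under all 25 alternatives, and the smallest adjusted p ran from 0.0652 to 0.998. Genes with an unadjusted p under 0.05, 1162 in the report, numbered 454 without fasted replicate 1, 2068 without fasted replicate 4, 3054 with slide as a random block and 5487 with a covariate for detected probes. In the labelled sex comparison 5 genes passed without fasted replicate 3, in a range of 0 to 5 over the left-out arrays. In the interaction 2210 passed without fasted replicate 4 (range 0 to 2210) and 1 without fed replicate 2, also when fasted replicate 3 was left out with it. Dropping any array leaves 1 array in its combination of feeding and labelled sex, whose spread is then taken from the other combinations. Why the interaction count rose without fasted replicate 4 was not tested. Cbr3 ranged from 0.26 to 1.20 and Nqo1 from 0.32 to 0.58 without a change of sign, though some alternatives cannot move these estimates. Of the picked genes, Cbr1 ranged from 0.86 to 1.11 and Ephx2 from 1.16 to 1.68. Akr1e1 ranged from 0.65 to 3.00, and was not measured with the filter of all 8 arrays. Of the tested genes near 0, Txnrd1 changed sign to 0.12 with quantile normalization, 0.017 with normexp, 0.088 in the authors' deposited matrix and 0.13 with a covariate for how many probes each array detected, and over left-out arrays it ran from -0.24 to 0.080. Hmox1 was -0.11 with slide as a block and -0.12 without fasted replicate 3 and fed replicate 4 together, and ran from -0.047 to 0.60 over left-out arrays. Srxn1 was -0.011 with array weights and ran from -0.083 to 0.59, and Gclc ran from -0.70 to 0.21 over single left-out arrays and was -0.87 without fasted replicate 3 and fed replicate 4 together. List medians ran from 0.06 to 0.47 for NADPH supply, 0.12 to 0.47 for the carbonyl and aldo-keto reductases and -0.26 to 0.52 for the epoxide hydrolases. Without fed replicate 2, NADPH supply was at 0.47 and the reductases at 0.23. The cause of these changes was not tested. Same-numbered fasted and fed arrays deviated together with correlations of 0.37, -0.47, -0.45 and 0.61, where the first and the last pair also share a slide, so the numbers do not pair the arrays, and the replicate block gave 0 genes past the threshold and 1113 with an unadjusted p under 0.05.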
